A study of Homo sapiens with 6 samples.

Results

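The genes described here were the nuclear-encoded subunit genes of oxidative phosphorylation, chosen by symbol alone: NDUFA, NDUFAB, NDUFB, NDUFC, NDUFS and NDUFV genes for complex I, SDHA to SDHD for complex II, UQCR genes and CYC1 for complex III, COX4I to COX8A genes for complex IV, and ATP5F1, ATP5M and ATP5P genes for complex V. Assembly factors, pseudogenes and readthrough loci were left out. This rule took 85 of the 23459 genes in the count table, of which 37 belong to complex I, 4 to complex II, 10 to complex III, 16 to complex IV and 18 to complex V. The electron transport chain and the ATP synthase of the mitochondrial inner membrane carry out oxidative phosphorylation, in which electrons from NADH and succinate pass through complexes I to IV to oxygen and the proton gradient built on the way drives ATP synthesis at complex V. Most subunits of these 5 complexes are encoded in the nucleus and imported as precursors, while a small set of hydrophobic core subunits is encoded by mitochondrial DNA. Their nuclear genes are housekeeping genes, active in nearly every cell, and their promoters are known for sites of NRF1, GABP and YY1. None of the 13 mitochondrially encoded subunit genes was among the genes in the table, so the values cover the nuclear part of the system alone.

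The cells were wild-type MCF10A (WT in the descriptions), an untransformed human mammary epithelial line cultured with serum, insulin, hydrocortisone, cholera toxin and EGF. They had been transfected with siRNA at 20 nM, either non-targeting (siCtrl, 3 libraries) or directed against YAP and TAZ (siYAP/TAZ, 3 libraries), the transcriptional coactivators that bind DNA through TEAD factors, with TAZ encoded by WWTR1. Sequencing was 3′ mRNA-Seq, and library totals ran from 3175149 to 4317286 counts. MCF10A is a single line and the labels do not state whether the libraries came from separate cultures, so p-values measure the spread between these 6 libraries, part of which may be technical.

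The group labels contradict each other for 2 libraries. The description field, which matches the column names of the count table, was used here. Under it siCtrl replicate 2 carries a siYAP/TAZ title and genotype entry and siYAP/TAZ replicate 2 those of the control. The replicate numbers in the titles also differ from the descriptions for these 2 libraries, siCtrl replicate 3 and siYAP/TAZ replicate 1. YAP1 was at 189, 204 and 210.3 CPM, the count scaled by TMM-adjusted library size, in the siCtrl libraries and at 116, 118 and 112 CPM in the siYAP/TAZ libraries, and WWTR1 at 109, 109 and 102 CPM against 70.5, 67.1 and 59.8 CPM. Both genes were lower in every siYAP/TAZ library of the description field, with fitted log2 fold changes of -0.80 (SE 0.12, adjusted p = 0.0138) and -0.69 (SE 0.13, adjusted p = 0.0311) in edgeR's quasi-likelihood test. The targeted genes thus followed the descriptions and went against the titles. Over all genes siCtrl replicate 2 lay between the groups on the first principal component, at 7.15 beside -42.6 and -34.9 for the other siCtrl libraries and 9.77 to 33.7 for siYAP/TAZ, so results that rest on it are given with and without it.

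All 7 mammary epithelial markers (KRT5, KRT14, KRT17, KRT6A, TP63, CDH1 and EPCAM) were detected. Their summed level was 2649 to 2689 CPM in siCtrl against 1831 to 1949 CPM in siYAP/TAZ. With all 6 libraries and no block, none of the 7 passed an adjusted p of 0.05 in edgeR's quasi-likelihood test, and DESeq2 called 2 lower. In the fit with the replicate block, KRT6A (log2 fold change -0.74, adjusted p = 0.00186), KRT5 (-0.46, 0.0230) and EPCAM (-0.53, 0.0364) fell and TP63 (0.59, 0.0379) rose. Over all tested genes that fit called 4.66% higher and 5.44% lower. Of the fibroblast markers COL1A2 and COL3A1 had 0 counts in all 6 libraries and PDGFRA alone was well detected, summed leukocyte markers reached at most 4.94 CPM and adipocyte markers 1.85 CPM, and the endothelial list moved through PECAM1, which had 4 to 6 counts in siCtrl and 14 to 29 in siYAP/TAZ. The part of these shifts in the subunit values was not tested. In bulk libraries, fewer cells of a type and less RNA per cell cannot be told apart.

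Of the 85 subunit genes, 80 passed the low-count filter. In the comparison without a block, 0 of them rose and 0 fell at an adjusted p under 0.05 in edgeR's quasi-likelihood test (Benjamini-Hochberg over 12510 genes), where 1.96% of all tested genes passed (0.743% higher and 1.22% lower). DESeq2 also called 0 of them, beside 4.54% of all genes. At an unadjusted p under 0.05, 10 were higher and 0 lower, a share of 12.5% higher where the shares over all tested genes were 8.4% higher and 9.27% lower. The fitted changes leaned upwards but were small: 60 of the 80 (75%) had a log2 fold change above 0, beside 49.9% of all tested genes, with a median of 0.14 (quartiles 0.0048 and 0.24) beside -0.00093. The whole range ran from -0.26 for NDUFB6 (0.836-fold) to 0.66 for UQCRC1 (1.58-fold). The median SE of a single gene was 0.14, and the 95% interval lay within a 2-fold change either way for 79 of the 80 and within 1.5-fold for 52.

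The levels show the same lean by library. Summed over the 85 genes, the subunit transcripts came to 10273, 11358 and 10575 CPM in siCtrl replicates 1 to 3 and to 12529.9, 11969.7 and 11678 CPM in siYAP/TAZ, or 10735 ± 560 against 12059 ± 433 (SD, n = 3 each). The 3 siYAP/TAZ sums were all above the 3 siCtrl sums, with siCtrl replicate 2 the nearest to them. Taken gene by gene, all 3 siYAP/TAZ libraries lay above all 3 siCtrl libraries for 21 of the 80 (26.2%), where 11.0% of all tested genes did so, and below them for 1, SDHB (1.25%), where 11.1% did so. As a share of all counts, the subunit genes took 1.05% to 1.09% in siCtrl and 1.14% to 1.28% in siYAP/TAZ.

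**Figure D1:**
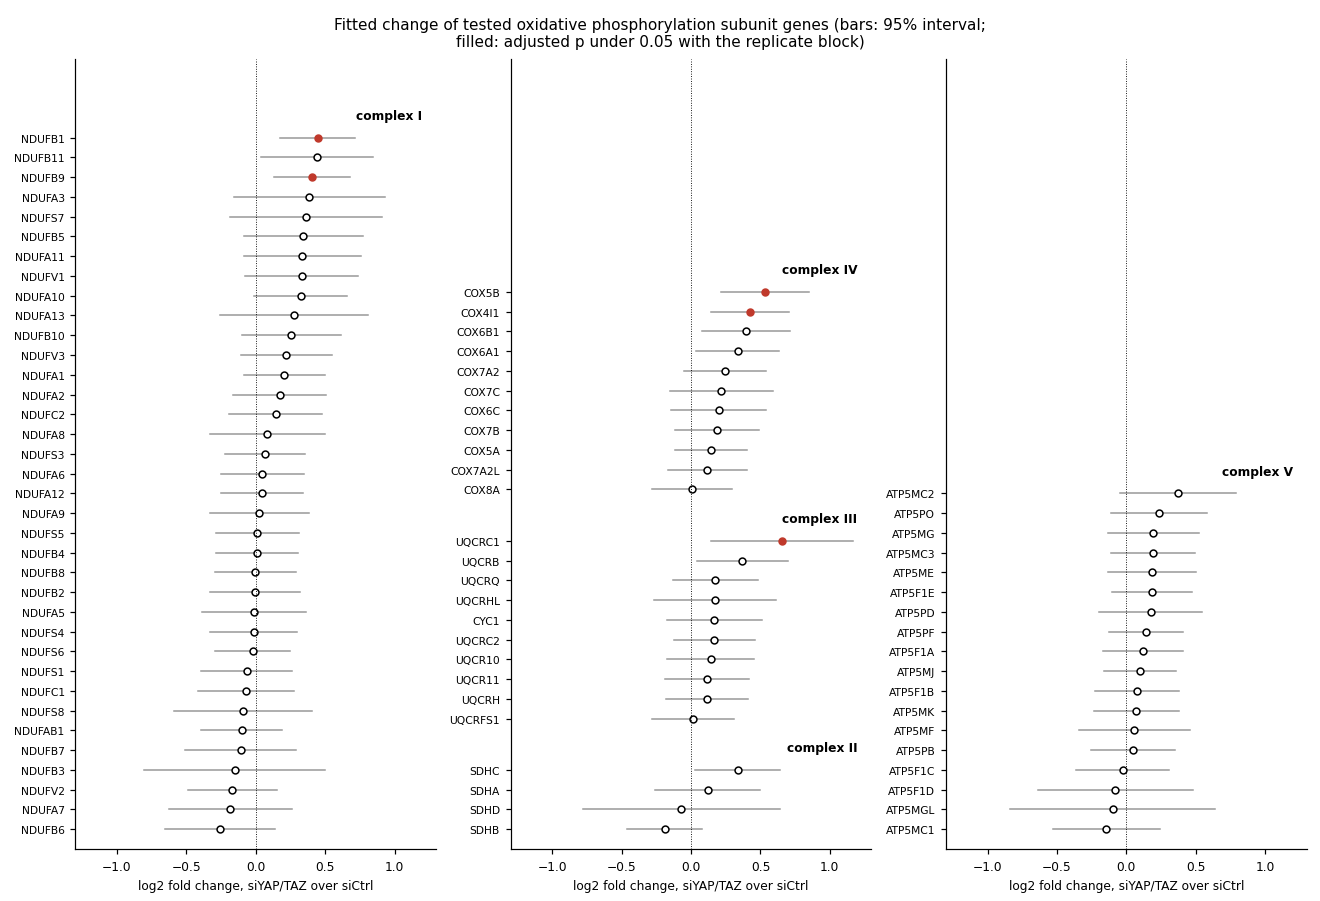
Fitted log2 fold change of siYAP/TAZ over siCtrl (x axis) for 79 of the 80 tested subunit genes (y axis, ordered by change within each complex), with 95% intervals as bars; filled points passed an adjusted p of 0.05 in the fit with the replicate block. The 5 filled points are UQCRC1, COX5B, NDUFB1, COX4I1 and NDUFB9, no point lies beyond a log2 fold change of 0.66, and every point of complexes III and IV lies above 0.

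No label states a pairing of the libraries across groups. Libraries of the same replicate number in the descriptions were taken as pairs because they deviated together from their group means. The correlations over 12510 genes were 0.416, 0.345 and 0.129 for replicates 1 to 3. Libraries of different numbers were not correlated in this way, so no other pairing was compared. The calls with the block rest on the pairing by number. With the replicate number as a block (a term for each pair of libraries), 5 subunit genes rose and 0 fell (6.25% of the 80 rose), beside 4.66% higher and 5.44% lower over all tested genes. The 5 were UQCRC1 (log2 fold change 0.68, adjusted p = 0.0127), COX5B (0.54, 0.0139), COX4I1 (0.42, 0.0300), NDUFB1 (0.45, 0.0369) and NDUFB9 (0.40, 0.0375). Without siCtrl replicate 2 and with no block, 7 rose (8.75%) and 0 fell, beside 6.08% higher and 6.22% lower over all genes, namely COX4I1, COX5B, NDUFB1, NDUFB5, ATP5MC2, UQCRB and UQCRC1. Without both libraries whose group labels conflict, 3 rose, COX5B, NDUFB5 and UQCRB, beside 4.65% higher and 4.64% lower over all genes. In each of these fits the share of subunit genes called higher was within a few percentage points of the share over all genes, so the number of calls does not set the subunit genes apart, while no subunit gene was called lower in any fit.

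**Figure D2:**
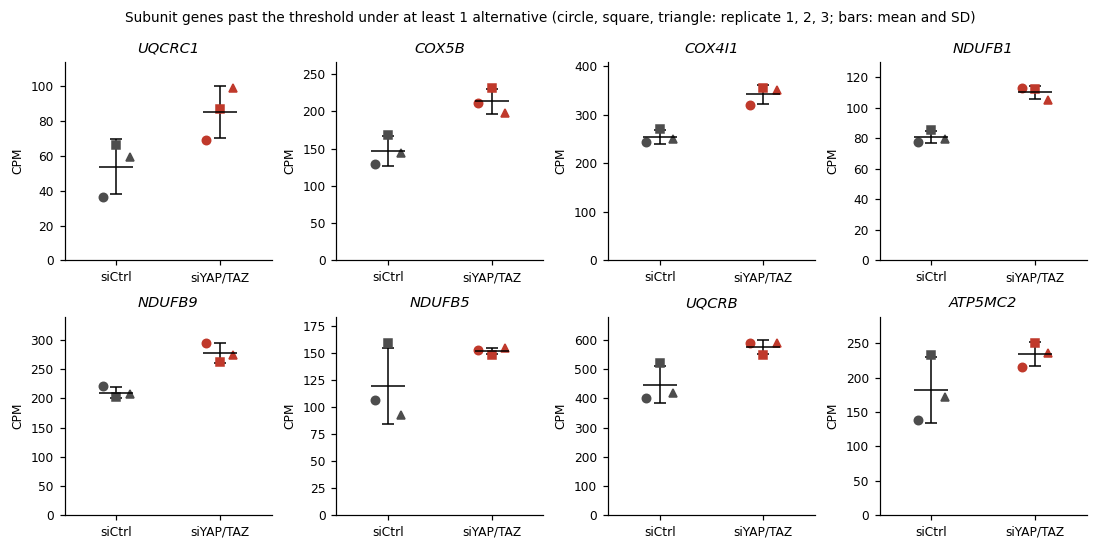
CPM (y axis, from 0) of the 8 subunit genes past the threshold under at least 1 alternative, by group (x axis), with replicates 1, 2 and 3 as circle, square and triangle and the mean and SD as bars. The groups do not overlap for UQCRC1, COX5B, COX4I1, NDUFB1, NDUFB9 and UQCRB, and siCtrl replicate 2 (square) reaches the siYAP/TAZ range for NDUFB5 and ATP5MC2.

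Promoter sequence was at hand for 68 of the 85 genes, in 81 windows of 250 bases before to 50 bases after the start (RefSeq, GRCh38.p14). Windows were searched on both strands for GCATGCG (core of the NRF1 site), CCGGAAG (core of ETS factors such as GABP), AAGATGG (core of YY1) and GGAATG (core of TEAD, the DNA-binding partner of YAP and TAZ); none of these letter strings overlapped another in the windows printed. GCATGCG stood in 18.5% of the subunit windows, beside 5.75% of the windows of all tested genes and 3.91% of all 35116 windows. CCGGAAG stood in 27.2%, beside 16.8% and 10.3%, and AAGATGG in 23.5%, beside 6.95% and 5.84%. GGAATG stood in 8.64%, beside 11.5% and 14.0%. Read as shares over all subunit windows, with no test, the cores of NRF1, ETS factors and YY1 stood above both backgrounds and the TEAD core below both. Windows of mitochondrial ribosomal proteins had higher ETS and YY1 shares (38.8% and 31.8%) and a lower NRF1 share (8.24%). Those of cytosolic ribosomal proteins had 32.9%, 10.1% and 6.33% in the same order. Complexes differed: the ETS core stood in 12.8% of complex I windows and the YY1 core in 6.67% of complex IV windows. The TEAD core stood in 28.6% of the 7 complex III windows.

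The promoters of 4 of the 5 genes called with the block are shown because these genes passed the threshold together, and that of NDUFB9 is not shown. The 4 differ in the searched cores they hold: no core stands in all 4, and the ETS core stands in both COX5B and COX4I1. The searched cores are in capitals, and each line runs 5′ to 3′ on the strand of the gene. COX5B (chr2:97645812-97646111, plus strand) holds the NRF1 core 136 bases before the start and the ETS core 37 and 5 bases before it. UQCRC1 (chr3:48609597-48609896, minus strand) holds the TEAD core 226 bases before and the YY1 core 23 bases after the start. COX4I1 (chr16:85799445-85799744, plus strand) holds the ETS core on the reverse strand 2 bases after the start, and NDUFB1 (chr14:92121657-92121956, minus strand) holds none of the 4. A match is a string of letters and not a bound site.
COX5B: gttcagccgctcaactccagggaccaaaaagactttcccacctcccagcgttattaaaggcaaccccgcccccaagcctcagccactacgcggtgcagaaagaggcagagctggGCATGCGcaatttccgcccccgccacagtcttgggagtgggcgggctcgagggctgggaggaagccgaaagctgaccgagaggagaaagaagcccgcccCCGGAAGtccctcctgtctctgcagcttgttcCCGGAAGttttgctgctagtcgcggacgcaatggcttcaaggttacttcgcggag
UQCRC1: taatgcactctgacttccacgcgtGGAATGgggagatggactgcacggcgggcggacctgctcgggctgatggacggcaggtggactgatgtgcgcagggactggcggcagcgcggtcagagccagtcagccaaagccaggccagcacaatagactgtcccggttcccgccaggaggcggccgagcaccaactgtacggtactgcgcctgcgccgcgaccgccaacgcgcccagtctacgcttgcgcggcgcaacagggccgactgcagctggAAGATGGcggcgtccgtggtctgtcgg
NDUFB1: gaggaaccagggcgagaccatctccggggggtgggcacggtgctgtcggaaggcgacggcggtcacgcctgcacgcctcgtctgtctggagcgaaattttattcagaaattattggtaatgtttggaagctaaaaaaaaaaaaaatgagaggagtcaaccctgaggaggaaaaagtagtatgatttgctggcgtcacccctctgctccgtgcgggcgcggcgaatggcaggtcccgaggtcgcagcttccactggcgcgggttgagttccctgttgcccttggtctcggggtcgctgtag
COX4I1: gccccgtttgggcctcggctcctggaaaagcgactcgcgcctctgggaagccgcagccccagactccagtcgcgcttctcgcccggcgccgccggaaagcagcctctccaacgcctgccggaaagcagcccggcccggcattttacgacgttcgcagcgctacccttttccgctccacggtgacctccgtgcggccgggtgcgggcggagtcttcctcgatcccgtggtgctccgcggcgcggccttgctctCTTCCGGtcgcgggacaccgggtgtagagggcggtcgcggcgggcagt

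Complex I (NADH dehydrogenase) takes electrons from NADH and hands them to ubiquinone, and is the largest of the complexes. Of its 37 subunit genes, all tested, 23 had a fitted change above 0 and 14 below, with a median of 0.047. With all 6 libraries none passed the threshold without the block (3 were higher at an unadjusted p under 0.05, and DESeq2 called 0). With the block 2 rose, NDUFB1 and NDUFB9. The groups did not overlap for 6 of the 37 genes, all higher in siYAP/TAZ. Of all tested genes, 11.0% were higher and 11.1% lower without overlap. Summed over the complex, the level was 3083, 3122 and 3037 CPM in siCtrl against 3517, 3235 and 3154 CPM in siYAP/TAZ.

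NDUFB1 (chr14:92582466-92588261, minus strand, GRCh37) encodes a small accessory subunit of the membrane arm. It was at 77.5, 85.2 and 79.4 CPM in siCtrl and at 113, 112 and 105 CPM in siYAP/TAZ. The groups were well separated and replicates were tight, with a fold change of 1.36 (log2 0.45, SE 0.12, adjusted p = 0.0980 without the block). NDUFB9 (chr8:125551342-125592889, plus strand), another accessory subunit of the membrane arm, was at 220.3, 202 and 207 CPM in siCtrl and at 296, 263 and 273 CPM in siYAP/TAZ. Here too every siYAP/TAZ library was the higher, at 1.32-fold (log2 0.40, SE 0.12, adjusted p = 0.128 without the block and 0.0610 with the block and the GC and length trends removed). TATDN1 overlaps NDUFB9 on the opposite strand, and its own fitted change was -0.045 (adjusted p = 0.908).

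NDUFB5, a further membrane arm subunit that fell outside the rule for named genes and was singled out after its values were seen, was at 107, 159.5 and 92.7 CPM in siCtrl and at 153, 148 and 154 CPM in siYAP/TAZ. The 3 siYAP/TAZ libraries were nearly level, and siCtrl replicate 2 stood above them all, so that the call depended on that library (adjusted p = 0.382 with it and 0.0137 without it, edgeR's quasi-likelihood test). NDUFB6, also of the membrane arm, had the largest fitted decrease of all subunit genes, with 65.2, 60.5 and 67.8 CPM in siCtrl against 53.9, 66.1 and 42.2 CPM in siYAP/TAZ. Those groups overlapped, and the decrease did not pass the test (log2 -0.26, SE 0.18, adjusted p = 0.485).

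The 7 nuclear-encoded core subunits, which carry the flavin, the iron-sulphur clusters and the quinone site, had a median of 0.067, and the 30 supernumerary subunits 0.045. NDUFV1, which binds NADH and the flavin, was at 22.7, 28.7 and 25.9 CPM in siCtrl and at 27.9, 37 and 32.6 CPM in siYAP/TAZ (log2 0.33, SE 0.18, adjusted p = 0.375). NDUFS1, the largest iron-sulphur subunit, was at 71.8, 76.2 and 59.1 CPM against 69.4, 61.8 and 66.4 CPM (log2 -0.065, SE 0.15). The groups overlapped for both, and the 95% intervals were -0.08 to 0.74 for NDUFV1 and -0.39 to 0.26 for NDUFS1.

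Complex II (succinate dehydrogenase) is also an enzyme of the citric acid cycle and is built of 4 nuclear-encoded subunits. They went in different directions, and none passed the threshold in any fit (without the block 1 was higher at an unadjusted p under 0.05, and DESeq2 called 0). SDHC, a membrane anchor that holds the heme, was at 161, 197 and 202 CPM in siCtrl and at 253, 225 and 227 CPM in siYAP/TAZ, so the groups did not overlap (log2 0.34, SE 0.14, adjusted p = 0.244, and 0.119 with the block). SDHB, the iron-sulphur subunit, was at 165, 162 and 155 CPM against 149.6, 142 and 130.0 CPM. It was the 1 subunit gene of all 80 with every siYAP/TAZ library below every siCtrl library, though by a small margin (log2 -0.19, SE 0.12, adjusted p = 0.449, and 0.307 with the block). SDHA, the flavoprotein that oxidises succinate, was at 63.8, 77.8 and 55.5 CPM against 65.7, 82.3 and 66.1 CPM, with the groups overlapping (log2 0.12, SE 0.17). SDHA shares sequence with pseudogenes SDHAP1 to SDHAP4, which had 17 to 119 counts per library, so reads between them could be split in counting.

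SDHD, the other membrane anchor, varied most, at 39.1, 27.2 and 32.2 CPM in siCtrl against 49.0, 23.8 and 20.1 CPM in siYAP/TAZ. Its siYAP/TAZ libraries spanned the whole siCtrl range and the interval of -0.78 to 0.64 sets no direction. The summed level of complex II was 445 ± 17.7 CPM in siCtrl against 478 ± 37.3 CPM in siYAP/TAZ (SD, n = 3 each), and those groups overlapped.

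Complex III (cytochrome bc1) passes electrons from ubiquinol to cytochrome c. All 10 of its genes had a fitted change above 0, with a median of 0.17, and the sum was 1537, 1850 and 1694 CPM in siCtrl against 2009, 1933 and 1980.5 CPM in siYAP/TAZ. The 10 include UQCRHL, a close relative of UQCRH with 93 to 133 counts per library. Reads of that pair could be split in counting. The siCtrl sums were spread (SD 157) and the siYAP/TAZ sums were close together (SD 38.6). With all 6 libraries none of the 10 passed without the block (2 were higher at an unadjusted p under 0.05, and DESeq2 called 0). With the block 1 rose. Without siCtrl replicate 1, the lowest library, the median of the complex was 0.10.

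UQCRC1 (chr3:48636435-48648409, minus strand), one of the large core proteins on the matrix side, related to the mitochondrial processing peptidase, had the largest fitted change of all subunit genes. It was at 36.2, 66.3 and 59.1 CPM in siCtrl and at 69.1, 86.9 and 99.0 CPM in siYAP/TAZ. The groups did not overlap, but siCtrl replicate 2 came close to siYAP/TAZ replicate 1 and both groups were spread. The fold change was 1.58 (log2 0.66, SE 0.23, 95% interval 0.14 to 1.17), with an adjusted p of 0.181 without the block and 0.0127 with it in edgeR's quasi-likelihood test. Its size and rank rested on siCtrl replicate 1, the lowest library. Without that library the log2 fold change was 0.438, below COX5B (0.448) and NDUFB9 (0.441) in the same fit. Without siCtrl replicate 2 it was 0.831. UQCRB, the ubiquinone-binding subunit, was at 401, 520.0 and 418 CPM in siCtrl and at 588, 550.0 and 591 CPM in siYAP/TAZ. The groups did not overlap, and the call again turned on siCtrl replicate 2 (log2 0.37, SE 0.15, adjusted p = 0.232 with all libraries, 0.0798 with the block and 0.0309 without that library). The row of the pseudogene UQCRBP1 rose with the block (337 to 422 counts in siCtrl and 456 to 669 in siYAP/TAZ, log2 0.54, adjusted p = 0.0201), and reads of the pair could be split between them in counting.

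The redox subunits of complex III did not pass the threshold in any fit. CYC1, cytochrome c1, was at 87.9, 119 and 103 CPM in siCtrl and at 103, 126 and 119.7 CPM in siYAP/TAZ (log2 0.17, SE 0.15, adjusted p = 0.610). UQCRFS1, the Rieske iron-sulphur protein, was at 114, 108 and 117 CPM against 125, 99.8 and 116 CPM, a log2 fold change of 0.014 (SE 0.13, 95% interval -0.28 to 0.31). Both pairs of groups overlapped.

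Complex IV (cytochrome c oxidase) reduces oxygen to water around a core of mitochondrially encoded subunits, which nuclear-encoded subunits surround and adjust. It had the largest median of the 5 complexes, 0.22, with all 11 tested genes above 0. Its sum was 1725, 2124 and 1867 CPM in siCtrl against 2226, 2384 and 2242 CPM in siYAP/TAZ, with siCtrl replicate 2 and siYAP/TAZ replicate 1 the nearest to each other. For 7 of the 11 genes the groups did not overlap, all higher in siYAP/TAZ, where 11.0% of all tested genes did so. With all 6 libraries none passed the threshold without the block (4 were higher at an unadjusted p under 0.05, and DESeq2 called 0). With the block 2 rose, COX5B and COX4I1. The median was 0.13 without siCtrl replicate 1, 0.34 without siCtrl replicate 2 and 0.14 with the groups of the titles.

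COX5B (chr2:98262525-98264846, plus strand), the zinc-binding subunit on the matrix side, came closest to the threshold of all subunit genes. It was at 129, 169 and 144 CPM in siCtrl and at 211, 231 and 198 CPM in siYAP/TAZ. No library crossed over, and the fold change was 1.45 (log2 0.54, SE 0.14), with adjusted p-values of 0.0908 without the block, 0.0505 in DESeq2 and 0.0139 with the block. COX4I1 (chr16:85832239-85840674, plus strand), the largest nuclear-encoded subunit, was at 243, 271 and 251 CPM in siCtrl and at 319, 355 and 352 CPM in siYAP/TAZ. The groups were clearly separated, at 1.34-fold (log2 0.42, SE 0.12, adjusted p = 0.117 without the block and 0.0300 with it). EMC8 overlaps COX4I1 on the opposite strand and its fitted change was -0.24 (adjusted p = 0.614); whether strand was used in counting is not stated.

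COX6B1, which faces the intermembrane space, was at 54.3, 66.3 and 60.3 CPM in siCtrl and at 73.7, 87.3 and 77.5 CPM in siYAP/TAZ (log2 0.40, SE 0.14, adjusted p = 0.192, and 0.0646 with the block). COX6A1, a small membrane-spanning subunit, was at 136, 166 and 145 CPM against 204, 179.8 and 179 CPM (log2 0.34, SE 0.13, adjusted p = 0.232, and 0.113 with the block). Both had every siYAP/TAZ library above every siCtrl library without passing the test. The same held with smaller margins for COX5A (209 ± 6.35 against 231 ± 7.13 CPM), COX7A2 (189 ± 22.5 against 223 ± 6.22 CPM) and COX7A2L, which takes part in joining complexes III and IV (67.8 ± 1.25 against 73.6 ± 5.08 CPM, SD, n = 3 each). COX7C, the member with the most counts in this complex, was at 243, 338 and 276 CPM against 282, 366 and 350.3 CPM, with overlapping groups (log2 0.22, SE 0.17). COX8A, the smallest change of the complex, was at 142 ± 15.5 CPM in siCtrl against 142 ± 2.43 CPM in siYAP/TAZ (log2 0.0073, SE 0.13), and its sign was not stable.

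The tissue-restricted forms of complex IV subunits were nearly absent, and these were the 5 genes that did not pass the filter. COX6A2 and COX7A1, the forms of heart and skeletal muscle, had 0 counts in all 6 libraries, where 3 counts correspond to 0.68 to 0.992 CPM. COX4I2, known from lung, had 1 count in each of 2 libraries, COX6B2, known from testis, had 3 counts in all, and COX7B2 had 1 to 4 counts per library. The COX4I, COX6A, COX6B and COX7B counts thus came almost entirely from the widespread form in both groups, while those of the COX7A family were split between COX7A2 (71.5% to 76.7% per library) and COX7A2L (23.3% to 28.5%). COX4I1 took 99.9% to 100% of the COX4I counts, and the 95% Wilson interval for COX4I2 reached at most 0.666% in any library; these intervals cover counting error only.

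Complex V (ATP synthase) joins a catalytic F1 head in the matrix to a rotating ring of c subunits in the membrane, held by a peripheral stalk. Of its 18 genes 14 had a fitted change above 0 and 4 below, with a median of 0.11, and the sum was 3500.4, 3798 and 3533 CPM in siCtrl against 4259.8, 3944 and 3858 CPM in siYAP/TAZ. The nearest values, siCtrl replicate 2 and siYAP/TAZ replicate 3, lay close together. None passed the threshold without the block or with it (0 at an unadjusted p under 0.05 in either direction, and DESeq2 called 0), and 1, ATP5MC2, rose without siCtrl replicate 2. The head had a median of 0.078, the peripheral stalk 0.16 and the c ring 0.19. Without siCtrl replicate 2 these were 0.18, 0.20 and 0.15, so the order of the parts rested on that library.

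ATP5F1A and ATP5F1B, the alpha and beta subunits that form the catalytic sites, were nearly level. ATP5F1A was at 248, 286 and 241 CPM in siCtrl and at 262, 286 and 295 CPM in siYAP/TAZ (log2 0.12, SE 0.13, 95% interval -0.17 to 0.41), and ATP5F1B at 252, 311 and 261 CPM against 286, 311 and 272 CPM (log2 0.078, SE 0.14, 95% interval -0.23 to 0.38). Both pairs of groups overlapped. ATP5MG, a membrane subunit at the dimer interface and the member with the most counts in this complex, was at 847, 872 and 927 CPM in siCtrl and at 1139, 936 and 952 CPM in siYAP/TAZ (log2 0.19, SE 0.15, adjusted p = 0.530). The siYAP/TAZ libraries were all higher, by a wide margin in replicate 1 alone. ATP5MGL, a close relative of ATP5MG, is counted among the 18 genes and had 12 to 24 counts per library. ATP5F1E shares sequence with the pseudogene ATP5F1EP2, whose row held 497 to 754 counts per library beside 425 to 641 for ATP5F1E, so the level of ATP5F1E is uncertain.

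The c subunit is encoded by 3 genes, ATP5MC1, ATP5MC2 and ATP5MC3, that give the same mature protein behind different import sequences. ATP5MC2 was at 139, 234 and 172 CPM in siCtrl and at 216, 251 and 237 CPM in siYAP/TAZ, with siCtrl replicate 2 inside the siYAP/TAZ range (log2 0.37, SE 0.19, adjusted p = 0.337, and 0.0229 without that library). ATP5MC3 was at 577, 520.0 and 566 CPM against 696, 606 and 596 CPM (log2 0.19, SE 0.14). ATP5MC1 was at 97.6, 107 and 98.8 CPM against 112, 90.9 and 71.0 CPM (log2 -0.14, SE 0.17). As a share of the counts of the 3 genes, ATP5MC1 took 12.1% ± 0.327 in siCtrl and 9.47% ± 1.55 in siYAP/TAZ (SD, n = 3 each), lower in all 3 siYAP/TAZ libraries, and the 2-sided exact permutation test gave p = 0.1, the smallest p that 3 against 3 libraries allow. The shares of ATP5MC2 (21.6% ± 5.12 against 24.6% ± 3.03) and ATP5MC3 (66.3% ± 5.38 against 65.9% ± 2.01) overlapped between groups, with exact permutation p = 0.6 and 1.0. Over these 3 comparisons no value could pass an adjusted threshold.

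**Figure D3:**
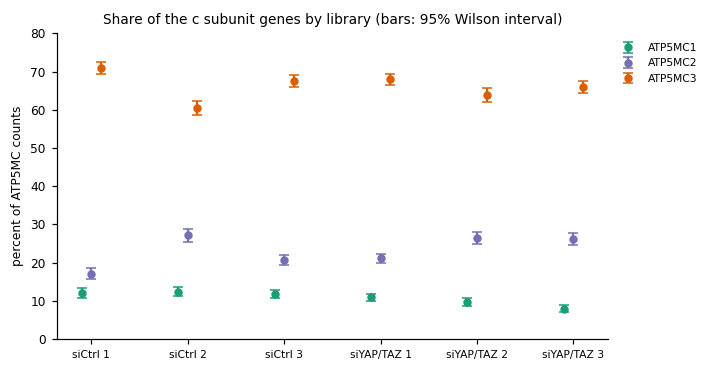
Share of each c subunit gene in the summed counts of ATP5MC1, ATP5MC2 and ATP5MC3 (y axis, percent, from 0) in each of the 6 libraries (x axis), with 95% Wilson intervals as bars, which cover counting error only. ATP5MC1 lies at 11.8% to 12.4% in siCtrl and at 7.86% to 11.0% in siYAP/TAZ, and ATP5MC2 in siCtrl replicate 2 (27.1%) lies above every siYAP/TAZ library.

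Genes that build, feed or regulate the complexes had medians near or below 0. In the comparison of all 6 libraries without a block, none of the genes in these lists passed the threshold, in edgeR or in DESeq2. Of 57 assembly factors, 21 had a fitted change above 0 and 36 below (median -0.11), and 3 were lower at an unadjusted p under 0.05, where 9.27% of all tested genes were. With the block 0 passed, and with the GC and length trends removed as well COX17, the copper chaperone of complex IV, fell (log2 -0.45, adjusted p = 0.0446), beside 5.36% lower over all genes. The ends of the list were both complex II factors, SDHAF4 at 9.5, 14.8 and 11.6 CPM in siCtrl against 9.1, 6.3 and 4.6 CPM in siYAP/TAZ (log2 -0.82, SE 0.32, adjusted p = 0.224) and SDHAF1 (log2 0.60, SE 0.34, adjusted p = 0.390). The 8 genes of cytochrome c, the adenine nucleotide and phosphate carriers and VDAC had a median of -0.027 (1 lower at an unadjusted p under 0.05), from CYCS (log2 -0.46, SE 0.31) to SLC25A6 (0.34, SE 0.16). The 17 genes of pyruvate dehydrogenase and the citric acid cycle had a median of 0.021 (0 at an unadjusted p under 0.05), from DLAT (-0.30, SE 0.18) to DLD (0.26, SE 0.12).

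Of the 17 regulators of mitochondrial biogenesis, 16 were tested, with a median of -0.098 and 1 lower at an unadjusted p under 0.05. POLRMT, the mitochondrial RNA polymerase, had 4 to 12 counts per library and was not tested. PPARGC1A, the coactivator that drives the programme in muscle and brown fat, had 7 to 20 counts per library (log2 -0.12, SE 0.39). TFB1M, an rRNA methyltransferase, had the largest decrease (log2 -0.56, SE 0.23, adjusted p = 0.256, and 0.0390 without both libraries of conflicting group labels) and PPARGC1B the largest increase (0.31, SE 0.16, adjusted p = 0.349). TFAM, which packages mitochondrial DNA and takes part in its transcription, was called lower without siCtrl replicate 2 alone (log2 -0.49, adjusted p = 0.0449, and 0.546 with all libraries). Of 22 import and chaperone genes, 17 lay below 0 (median -0.17), and unadjusted p-values under 0.05 went to 1 higher and 1 lower gene. Without siCtrl replicate 2 the median was -0.31, and HSPE1 (log2 -0.75, adjusted p = 0.0148) and TOMM5 (-0.58, 0.0402) fell, beside 6.22% lower over all genes. With the block HSPE1, a matrix chaperonin, fell (log2 -0.55, adjusted p = 0.0259), and TOMM7, of the outer membrane import pore, rose (0.39, adjusted p = 0.0415).

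The medians of the mitochondrial and the cytosolic ribosomal proteins lay on opposite sides of 0. Of 77 mitochondrial ribosomal protein genes, 53 lay below 0 (median -0.16), and unadjusted p-values under 0.05 went to 2 higher and 9 lower genes, where 8.4% of all tested genes were higher and 9.27% lower. With the block MRPS26 (log2 -0.51, adjusted p = 0.0349) and MRPL18 (-0.45, 0.0450) fell, a share below the 5.44% lower over all genes. MRPL12 had the largest decrease (log2 -0.61, SE 0.26) and MRPL45 the largest increase (0.39, SE 0.15). Of 76 tested cytosolic ribosomal protein genes, 75 lay above 0 (median 0.27, with 15 higher at an unadjusted p under 0.05). With the block 10 rose, beside 4.66% higher over all tested genes. They were led by RPL13A at 1000.3, 1687 and 1378 CPM in siCtrl against 1648, 2234 and 1974 CPM in siYAP/TAZ (log2 0.55, adjusted p = 0.0110). RPL23A alone lay below 0 (log2 -0.088, SE 0.13). The median of the cytosolic ribosomal proteins thus lay on the same side of 0 as that of the subunit genes and further from it, and the part of this in the subunit values was not tested. No difference between lists was tested.

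**Figure D4:**
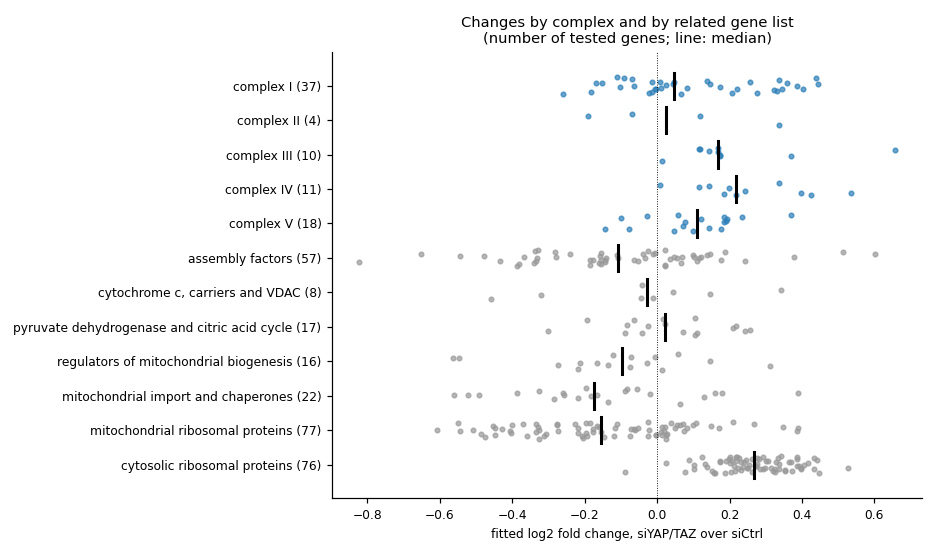
Fitted log2 fold change of siYAP/TAZ over siCtrl (x axis) for each tested gene of the 5 complexes (blue) and of 7 related lists (grey), 1 point per gene with vertical scatter for legibility and black lines at the medians. The medians of the complexes run from 0.025 to 0.22, those of the mitochondrial lists from -0.17 to 0.021, and that of the cytosolic ribosomal proteins is 0.27.

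Subunit and cytosolic ribosomal protein transcripts are both short. The median transcript length was 758 bases for the subunit genes and 827 for the cytosolic ribosomal proteins, beside 3481 for all tested genes, and GC content was alike (47.2%, 47.6% and 47.1%). With the trends of each library in GC content and length removed, the subunit median was 0.11 in place of 0.14 and that of complex IV 0.23 in place of 0.22. With the block added to that fit 3 subunit genes rose, COX5B (adjusted p = 0.0199), UQCRC1 (0.0182) and COX4I1 (0.0449), while NDUFB9 (0.0610) and NDUFB1 (0.0659) did not pass and 0 fell, beside 4.39% higher and 5.36% lower over all genes.

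By library, the subunit genes and the cytosolic ribosomal proteins shared the order of the siCtrl libraries but not that of the siYAP/TAZ libraries. The median deviation of the 80 genes from their own means on the log2(CPM + 1) scale was -0.12, -0.0056 and -0.081 in siCtrl replicates 1 to 3 and 0.093, 0.086 and 0.033 in siYAP/TAZ. All 3 siYAP/TAZ libraries were above all 3 siCtrl libraries, for complexes I, III and IV as well. For the cytosolic ribosomal proteins the values were -0.31, 0.050 and -0.16 against -0.069, 0.24 and 0.21, so that siYAP/TAZ replicate 1 fell within the siCtrl range. For complex IV, siCtrl replicate 1 stood lowest at -0.29 and siYAP/TAZ replicate 2 highest at 0.17, and siCtrl replicate 2, at -0.0069, was the nearest of its group to siYAP/TAZ.

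**Figure D5:**
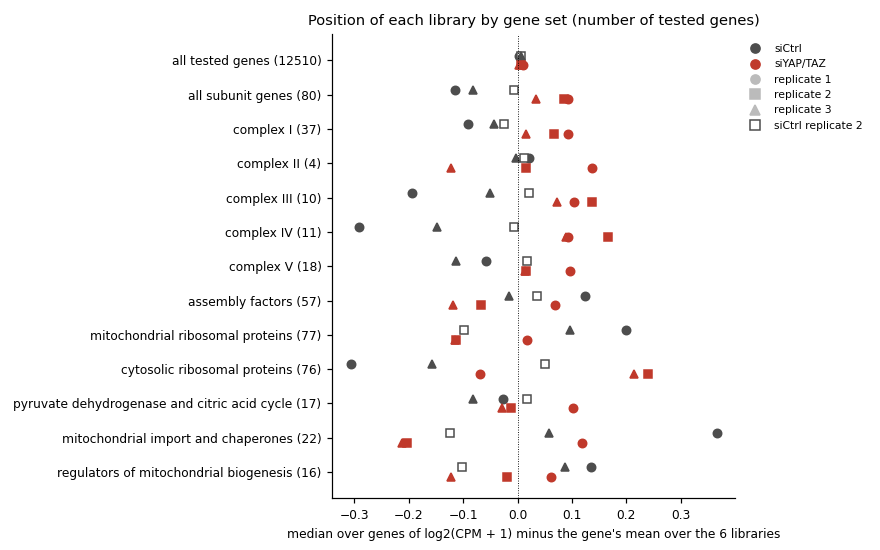
Median over the tested genes of each set of log2(CPM + 1) minus the gene's mean over the 6 libraries (x axis), by gene set (y axis), with siCtrl in grey, siYAP/TAZ in red, replicates by shape and siCtrl replicate 2 open. For all subunit genes the 3 siYAP/TAZ libraries lie at 0.033 to 0.093 and the 3 siCtrl libraries at -0.12 to -0.0056, while for all tested genes the 6 libraries lie within 0.0030 to 0.0099.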

How the data were processed

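The deposited table holds raw counts by Entrez gene, as the authors made them, for the 6 MCF10A 3′ mRNA-Seq libraries (QuantSeq 3′ kit, forward), with no normalisation. The submitters' processing notes name cutadapt 4.2, Bowtie2 2.3.5.1 and hg19, while the gene annotation and the use of strand in counting are not given in the sources used here. Symbols for 23308 of 23459 genes (99.7% of counts) came from the RefSeq table of GRCh38.p14, used for names only, and coordinates from GENCODE 44 lifted to GRCh37, the same positions as hg19. A forward kit reads each transcript near its 3′ end, so CPM was not scaled by length. A gene's levels were compared between libraries and never with those of another gene, apart from shares within a gene family.

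edgeR 4.0.16 in R 4.3.3 (quasi-likelihood F test, filterByExpr, TMM) was run on the counts with a term for group and no other. P-values were adjusted by Benjamini-Hochberg over 12510 genes (99.5% of counts), with 0.05 as the threshold. SE came from the fold change and its F statistic, and CPM are TMM-scaled with SD over 3 libraries. DESeq2 1.42.0, other scalings and filters, a replicate block, GC and length trends, left-out libraries and the groups of the titles were the alternatives, 17 in all, and the code was tested on simulated data with 200 changed genes. Replicate libraries differed by more than sampling noise (chi-square per degree of freedom 5.37 to 17.4), so none was counted as a repeat. The floor of 3 counts covers counting error only.

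Groups and replicate numbers came from the description field, and no label states a pairing. Libraries of 1 number deviated together from their group means across 12510 genes (r = 0.416, 0.345 and 0.129 for replicates 1 to 3, with genes not independent), which was read as a pairing by number. No other pairing was compared. The genes named were, in each complex, the member with the most counts and those with the largest and smallest change, a list of catalytic subunits and isoform families, every gene that missed the filter and, in other lists, members past the threshold and both ends. The subunit genes, lists and tests were chosen with earlier results of these data known. The values of 1 complex I subunit gene are not reported here, and it is counted in the totals alone.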

Additional observations from a re-analysis of the deposited data

How the results depend on the processing

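The median log2 fold change of the subunit genes stayed above 0 under all 17 alternatives and was 0.078 with the groups of the titles, the lowest value, beside 0.14; leaving out 1 library gave 0.10 to 0.16. Genes called higher numbered 5 with the replicate block, 3 with the block and the GC and length trends removed, 3 without the 2 libraries of conflicting group labels and 0 to 7 when 1 library was left out (7 without siCtrl replicate 2, 0 without each of the others), in place of 0, and 0 were called lower throughout. The block changed no other call among the subunit genes. Among all tested genes, 245 were called, 587 with DESeq2, 556 without the low-count filter, 1263 with the block, 1219 with the block and the trends removed, 1183 without the conflicting libraries, 16 to 1579 with 1 library left out and 0 with the groups of the titles. The cause of these differences was not tested. Named genes near 0 changed sign: ATP5MC1 with the groups of the titles (0.015) or without 1 library (-0.32 to 0.011), COX7A2L with the titles (-0.041), COX8A with library size alone (-0.0083), with the GC and length trends removed (-0.10, and -0.10 with the block added) or without 1 library (-0.061 to 0.097), NDUFS1 with the titles (0.14), without the conflicting libraries (0.059) or without 1 library (-0.17 to 0.015), SDHD with the titles (0.023) or without 1 library (-0.58 to 0.17), and UQCRFS1 with library size alone (-0.0032) or without 1 library (-0.061 to 0.10). The 5 genes that missed the filter had 0 to 4 counts per library, too few to compare, and the median SE of the tested genes was 0.14.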

Other observations

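Apart from ATP5IF1, which is counted among the assembly factors, the rows next to the subunit genes given here belong to no comparison above. COXFA4, the current symbol of NDUFA4, a subunit found with complex IV, is outside the naming rule and had 1108, 1114 and 1367 counts in siCtrl and 1952, 1137 and 1369 counts in siYAP/TAZ (log2 fold change 0.24, adjusted p = 0.368 in edgeR's quasi-likelihood test and 0.224 with the block). Its relatives COXFA4L2 and COXFA4L3 had 3 to 14 and 1 to 5 counts per library and were not tested. The readthrough loci NDUFC2-KCTD14 and ATP5MF-PTCD1 held 266 to 478 and 276 to 461 counts per library, with fitted changes of 0.14 and 0.00065 (adjusted p = 0.672 and 0.999), so that reads of NDUFC2 and ATP5MF may be split with them. ATP5IF1, the inhibitor of ATP hydrolysis by complex V, had 526 to 794 counts and a fitted change of 0.11 (adjusted p = 0.694).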
